A study of Mus musculus with 2 samples.

Results

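The genes described here encode the enzymes and carriers of fatty acid oxidation in mitochondria and peroxisomes. They were chosen by name: 40 gene symbols were looked up among the 37072 named targets of the array, and all 40 had at least 1 probe, 72 probes in all. Of these genes 23 were placed in the mitochondrial class, 9 in the peroxisomal class, and 8 were kept apart because their products lie in both compartments or in other membranes. The samples were total RNA of mouse cells, 1 sample given an agent that the labels call S180 and 1 given DMSO, a common solvent used as the control. No further detail of the cells, of S180, of its dose or of the exposure time is given in the sources used here. Each sample was hybridised to 1 Agilent single-colour (Cy3) array, so no difference below has a replicate check, no p-value is given, and effects of the agent, the culture, the labelling and the array cannot be told apart.

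Fatty acids are first joined to coenzyme A by acyl-CoA synthetases. Long chains then enter mitochondria as carnitine esters and are shortened in a repeated cycle of dehydrogenation, hydration, a second dehydrogenation and thiolysis, with electrons passed on through electron transfer flavoprotein. Peroxisomes run a parallel cycle on very long and branched chains, in which the first step is an oxidase that makes hydrogen peroxide. Genes of both pathways are known targets of the PPAR family of nuclear receptors, which sense fatty acids, and of their PGC-1 coactivators.

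No gene of either pathway differed by 1.5-fold between S180 and DMSO. A gene counted as measured when the scanner software flagged at least 1 of its probes as well above background in each sample, and its brightest such probe was used. This held for 39 of the 40 genes and for 56.1% of the array's named targets. Values are log2 processed signals minus the 75th percentile of their own array, and a difference is S180 minus DMSO. Among the measured oxidation genes 0 were at least 1.5-fold lower and 0 at least 1.5-fold higher, where 1.71% and 3.08% of the 20782 measured genes were. At 1.2-fold, 2 were lower (Cpt1a and Ehhadh) and 1 was higher (Acsl4), where 11.8% of all measured genes were lower and 15.1% higher. At 2-fold, 0 members were lower or higher, where 0.168% and 0.582% of all measured genes were. The oxidation genes ran from -0.43 to 0.42 with an SD of 0.16 (n = 39 genes), and the SD over all measured genes was 0.29. Dim probes scatter more, and the oxidation genes were mostly bright: with the measured genes split by signal into 3 brightness groups of equal size, 24 lay in the bright group, 13 in the middle group and 2 in the dim group. The SD over all measured genes of a group was 0.21 in the bright, 0.27 in the middle and 0.36 in the dim group. Among bright genes 3.78% were 1.2-fold lower and 8.76% were 1.2-fold higher. At 1.5-fold, 7 of the 6928 bright genes were lower and 115 higher, and 80 and 144 of the 6927 genes of the middle group. A count of 0 among mostly bright genes is therefore close to that of other bright genes. The only available error is that between replicate spots of a probe on the array. The SD of a difference between single spots was 0.035 over 260 bright probes, 0.065 over 6 probes of the middle group and 0.26 over 11 dim probes.

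**Figure D1:**
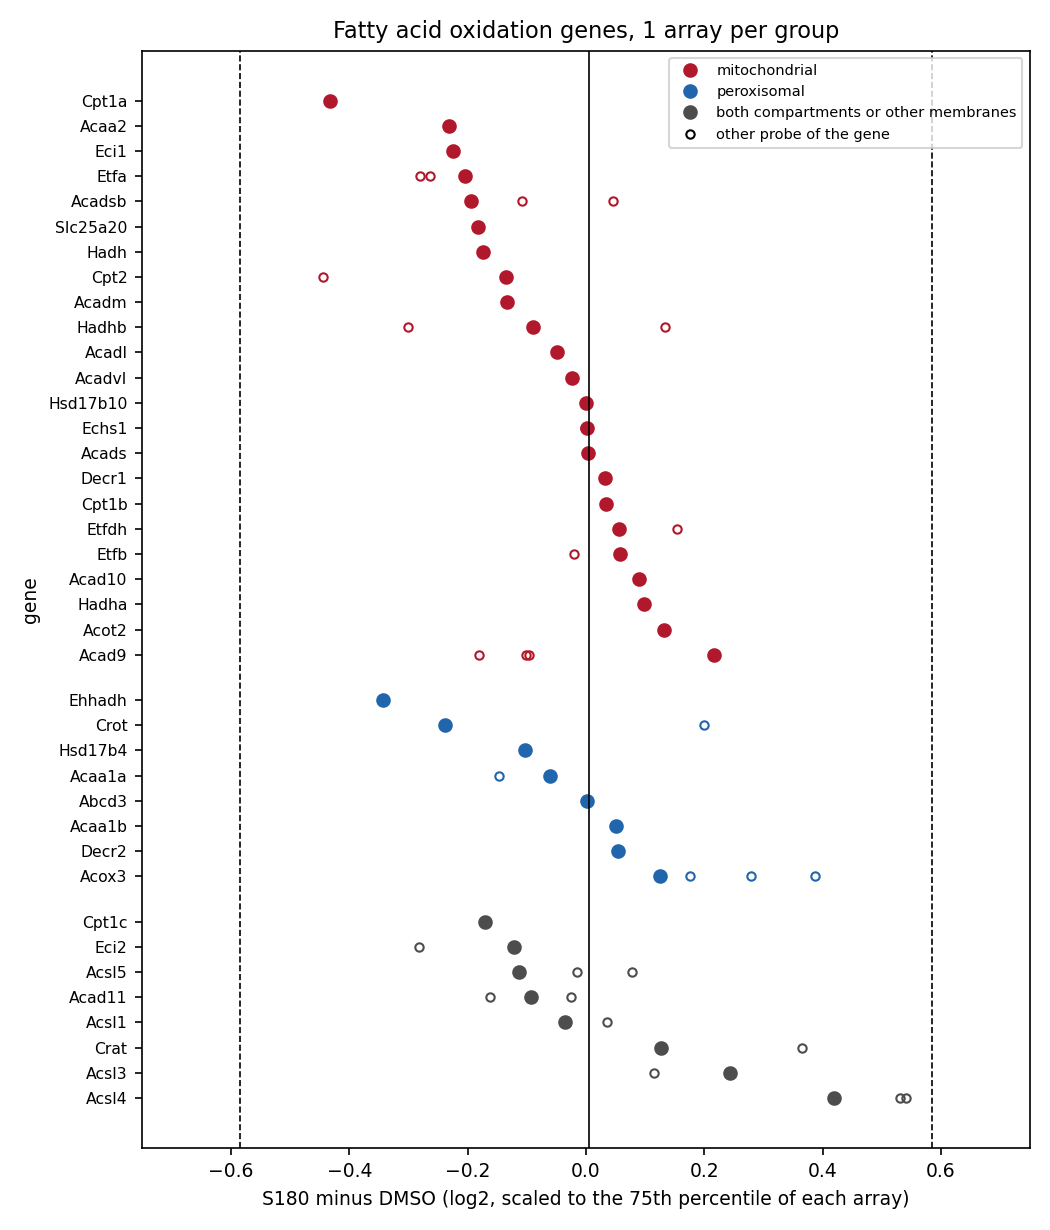
Differences of the 39 measured genes, S180 minus DMSO in log2 (x axis), by gene (y axis) and class (colour). Filled points are the brightest probe, open points other measured probes, the solid line is the median gene and dashed lines mark 1.5-fold. Cpt1a (-0.43) and Acsl4 (0.42) lie at the ends of the filled points, and no point crosses a dashed line.

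The size of these differences depended on how the arrays were scaled. The 75th percentile of signal was 615 in S180 and 748 in DMSO. Without any scaling, 38 of the 39 genes lay below 0, where 86% of all measured genes did, and 2 were at least 1.5-fold lower, where 9.01% were. Using 8 spiked-in control transcripts as the reference instead put the median gene at -0.35. On that scale 38 of the 39 genes lay below 0, as did 90.1% of all measured genes, and Acsl4 alone lay above 0 (0.065). There 4 oxidation genes, Cpt1a, Ehhadh, Crot and Acaa2, were at least 1.5-fold lower, where 14.3% of all measured genes were. Over all measured genes, 356 were 1.5-fold lower and 640 higher with the 75th percentile, 453 and 533 with quantile normalization, and 2975 and 146 on the spike-in scale. Differences relative to the median gene do not depend on a factor per array. With the 75th percentile the median gene lay at 0.0043, so the values below are close to such relative differences.

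**Figure D2:**
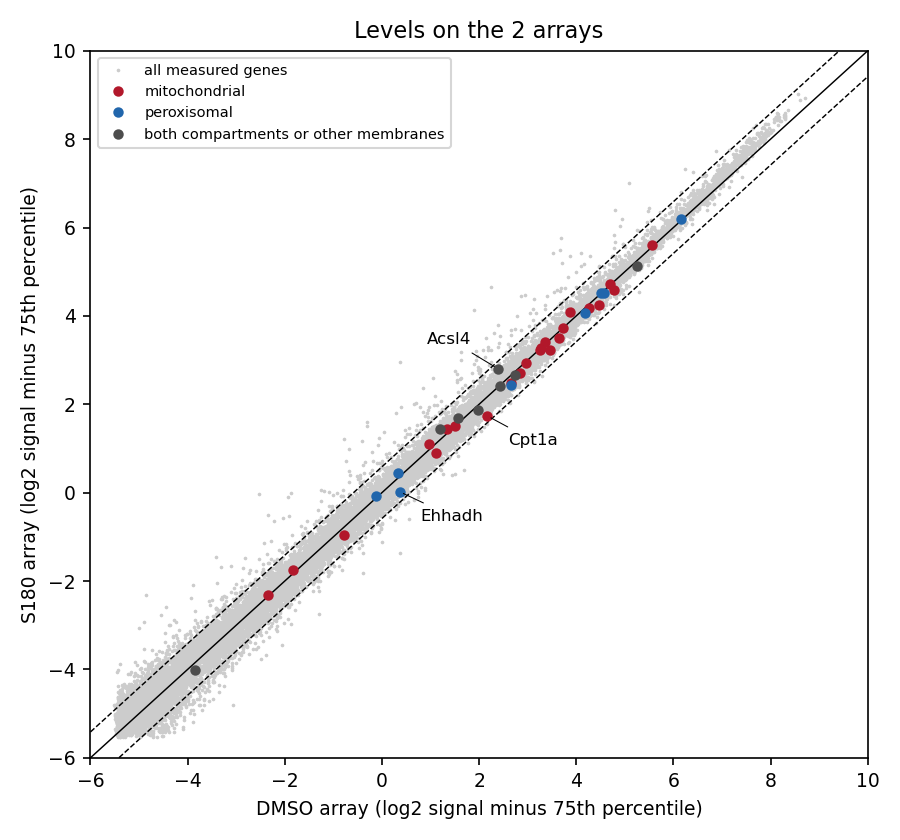
Scaled level on the DMSO array (x axis) and on the S180 array (y axis), both log2 signal minus the array's 75th percentile, for 20782 measured genes (grey) and 39 oxidation genes (coloured by class). The solid line marks equal levels and the dashed lines 1.5-fold. All coloured points lie between the dashed lines, with Cpt1a and Ehhadh toward the lower line and Acsl4 toward the upper.

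The acyl-CoA synthetases, which activate fatty acids before either pathway, ran from -0.11 to 0.42. Acsl4, which prefers arachidonic acid and other polyunsaturated acids, had a processed signal of 4305 in S180 and 3910 in DMSO. After scaling it was 1.34-fold higher in S180 (0.42), above 96.6% of the bright genes. Its other measured probes gave 0.53 and 0.54, so all 3 lay on the same side. Acsl3, an enzyme of the endoplasmic reticulum and lipid droplets, had signals of 1673 and 1719 and was 1.18-fold higher after scaling (0.24), with 0.11 from its other probe. Acsl1, the main long-chain synthetase of liver, fat and muscle, differed by -0.035, with signals of 3261 and 4060. Its other measured probe gave 0.035. Acsl5, a synthetase of the outer mitochondrial membrane and endoplasmic reticulum, differed by -0.11, with signals of 2237 and 2941. Its dimmer probes gave -0.016 and 0.078. The difference of Acsl4 thus lay 0.45 above that of Acsl1, and that of Acsl3 lay 0.28 above it.

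The Acsl4 values rest on probes that partly share sequence, which is why stretches of them are shown. The probe at chrX:138755214-138755273 and the probe at chrX:138755198-138755257 (build mm9, as all probe positions here) overlap by 44 bases and differ at 1 of them. Counted from 1 at the 5′ end of the first probe, this is T54A. Bases 39 to 60 of the first probe and the matching bases of the other are, with the differing base in capitals:
Acsl4 probe with the difference 0.53: gtatgggggcaaataTaatgcg
Acsl4 probe with the difference 0.54: gtatgggggcaaataAaatgcg
Both probes gave nearly the same difference, and the brightest Acsl4 probe lies apart from them, at chrX:138752602-138752661. Whether probes lie in coding or untranslated exons was not annotated here.

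The carnitine shuttle held the lowest value of all. Cpt1a, the carnitine palmitoyltransferase of the outer mitochondrial membrane and the rate-limiting step of long-chain entry in most tissues, had a signal of 2052 in S180 and 3364 in DMSO. It was 1.35-fold lower in S180 after scaling (-0.43). Its difference lay below that of all but 3.99% of the measured genes and of all but 3.25% of genes in its brightness group, and its size was larger than the spot SD of that group. Cpt1a had a single probe on the array, at chr19:3385374-3385433, so no other probe could be compared. Cpt1b, the muscle isoform, was dim, with signals of 124 and 148, and differed by 0.034. Cpt1c, a brain isoform found in the endoplasmic reticulum, was dimmer still, with signals of 37.9 and 51.8, and differed by -0.17, which is below the spot SD of the dim group. Cpt2, which rebuilds acyl-CoA inside the inner membrane, had signals of 4010 and 5349 and differed by -0.13, with -0.44 from a dimmer probe. Slc25a20, the carnitine-acylcarnitine carrier of that membrane, had signals of 315 and 435 and differed by -0.18. The 4 mitochondrial members of the shuttle had a median of -0.16, and 3 of them lay below the median gene, where 50% of genes do by definition.

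The acyl-CoA dehydrogenases, which open each turn of the mitochondrial cycle, stayed close to the median gene. Acadvl, Acadl, Acadm and Acads act on very long, long, medium and short chains, in that order. Acadvl differed by -0.024 (signals of 5783 in S180 and 7147 in DMSO) and Acadl by -0.049 (4681 and 5883). Acadm differed by -0.13 (6999 and 9334) and Acads by 0.0033 (1762 and 2136). Values therefore did not run in order of chain length. Acadsb, which acts on short branched chains, had signals of 1155 and 1607 and a difference of -0.19, while its dimmer probes gave -0.11 and 0.045. Acad10 differed by 0.09 (183 and 209). Acad9, better known as an assembly factor of respiratory complex I, had the highest value of the mitochondrial class, 0.22, with signals of 10400 and 10881. That value came from a probe assigned to an Ensembl transcript at chr3:35971872-35971931, and the other 3 measured probes of Acad9 all lay below 0, between -0.18 and -0.095. The 7 dehydrogenases of the class had a median of -0.024, and 4 of them had a difference below 0, where 10199 of the 20782 measured genes did.

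The later steps of the mitochondrial cycle also showed small differences. Echs1, the short-chain enoyl-CoA hydratase, differed by 0.0013 on its brightest probe and by -0.0019 on its other probe. The trifunctional protein takes long chains through hydration, dehydrogenation and thiolysis. Its alpha subunit Hadha differed by 0.098 (signals of 1667 and 1892) and its beta subunit Hadhb by -0.09 (11085 and 14337), with -0.30 and 0.13 from dimmer Hadhb probes. Hadh, the dehydrogenase for shorter chains, differed by -0.17 (3422 and 4690). Acaa2, the mitochondrial thiolase, had signals of 11639 in S180 and 16600 in DMSO and was 1.17-fold lower (-0.23), below all but 5.33% of the bright genes. Hsd17b10, a dehydrogenase that is also a subunit of mitochondrial RNase P, differed by 0.00061. Of these 6 genes 3 had a difference below 0, where 10199 of the 20782 measured genes did. Echs1 and Hsd17b10 lay between 0 and the median gene. The median of the 6 was -0.045.

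Enzymes for unsaturated chains and the electron carriers went in both directions. Decr1, the mitochondrial dienoyl-CoA reductase, differed by 0.033, and Eci1, the isomerase that moves a double bond, by -0.22 (signals of 5776 in S180 and 8203 in DMSO). The subunits of electron transfer flavoprotein did not go the same way: Etfa, the alpha subunit, was 1.15-fold lower (-0.20), and Etfb, the beta subunit, differed by 0.058. All 3 Etfa probes lay below the median gene, between -0.28 and -0.20, and the Etfb probes gave 0.058 and -0.02. With quantile normalization the brightest Etfb probe also lay below 0 (-0.026). The signals of Etfa were 14741 and 20645, and those of Etfb 30048 and 35081. Etfdh, which passes the electrons to ubiquinone, differed by 0.055, with 0.15 from a dimmer probe. Acot2, a matrix thioesterase that frees fatty acids from coenzyme A, differed by 0.13.

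The peroxisomal enzymes were led by Ehhadh. Ehhadh, the L-bifunctional enzyme and a classical PPAR-alpha target, had a signal of 625 in S180 and 963 in DMSO and was 1.27-fold lower (-0.34), below all but 7.13% of genes in the middle brightness group. It had a single probe, at chr16:21761914-21761973. Hsd17b4, the D-bifunctional enzyme that catalyses the same pair of steps on branched chains and bile acid precursors, differed by -0.10 (10332 and 13479). The value of Ehhadh lay 0.24 below that of Hsd17b4. Acaa1a and Acaa1b are closely related peroxisomal thiolases, and they differed by -0.06 (14067 and 17821) and 0.051 (586 and 688). A dimmer Acaa1a probe gave -0.15. The probes of Acaa1a share no run of over 6 bases with that of Acaa1b, and cross-hybridisation to the other transcript was not tested.

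Of the oxidases, Acox3, which acts on branched chains, was 1.09-fold higher (0.13; signals of 839 and 935), with 0.18 to 0.39 from its other probes. Acox2, the oxidase of bile acid precursors, was the member not measured, since its 2 probes were not well above background on either array. Abcd3, a transporter that imports acyl-CoA into peroxisomes, differed by 0.0019 (14009 and 17001), and Decr2, the peroxisomal dienoyl-CoA reductase, by 0.054 (45274 and 52987), or by -0.057 with quantile normalization. Crot, which joins shortened chains to carnitine for export, was 1.18-fold lower on its brightest probe (-0.24; 3311 and 4748), but its other probe, assigned to an Ensembl transcript, gave 0.20. Crat, Eci2 and Acad11 are known in both compartments. Crat, the carnitine acetyltransferase, differed by 0.13, with 0.36 from a dimmer probe. Eci2, an isomerase, differed by -0.12, with -0.28 from its other probe. Acad11 differed by -0.093, with -0.16 and -0.025 from its other measured probes.

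The mitochondrial and peroxisomal classes had nearly the same typical value. The median difference was -0.024 over the 23 mitochondrial genes and -0.029 over the 8 measured peroxisomal genes, so that the peroxisomal minus the mitochondrial median was -0.0049. Means were -0.059 ± 0.15 (SD, n = 23 genes) and -0.064 ± 0.16 (SD, n = 8 genes). Below the median gene lay 15 of 23 mitochondrial, 5 of 8 peroxisomal and, with the remaining members, 25 of all 39 genes (64.1%), where 50% of genes do by definition. This count includes Acads, Echs1, Hsd17b10 and Abcd3, which lay between 0 and the median gene. A difference below 0 was seen in 21 of the 39, and in 10199 of the 20782 measured genes. Among genes brighter than the median gene 18 of 33 members lay below that set's own median. With quantile normalization 23 of the 39 lay below it and with cyclic loess 22. Restricted to enzymes of the cycle itself, the medians were -0.024 for 15 mitochondrial and -0.0046 for 6 peroxisomal genes. Each class had 1 gene at least 1.2-fold lower, Cpt1a and Ehhadh, and 0 genes 1.2-fold higher. The genes of a class are not replicates of a condition, so no test was made.

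Among 88 measured genes of 6 related lists, 1 was at least 1.5-fold lower and 1 higher, where 1.71% and 3.08% of all measured genes were. In a list of PPAR targets outside oxidation, 12 of 20 genes were measured, with 1 past 1.5-fold, and a list median of 0.079. Angptl4, an inhibitor of lipoprotein lipase, had signals of 808 in S180 and 2043 in DMSO and was 2.08-fold lower (-1.06) on its only probe. Acot1, a cytosolic acyl-CoA thioesterase, had the next lowest value (-0.24; 7344 and 10569). The highest values of that list, 0.27 for Fabp4 and 0.21 for Slc27a4, came from dim probes. In a list of 24 regulators, 21 were measured and 0 were 1.5-fold apart, with a median of -0.037. Of the PGC-1 family, Pprc1 differed by -0.38, Ppargc1b by -0.35 and Ppargc1a (named here with its values already in view) by -0.30. The 7 measured probes of these 3 genes, of 8 on the array, lay below the median gene, where 50% of genes do by definition. Pprc1 and Ppargc1b were named as the 2 lowest of the list, so this count is not independent support. Acaca, an acetyl-CoA carboxylase, was 1.35-fold higher (0.44; 0.23 to 1.14 over 7 probes), and Esrrb differed by 0.35 in the dim group. Ppara, Esrrg and Rxrg were the regulators not measured.

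Of 16 peroxins, which build peroxisomes, all were measured, against 56.1% of the array's named targets. At 1.2-fold 0 were lower or higher, where 11.8% and 15.1% of all measured genes were. Their median was -0.07, and they ran from -0.25 for Pex7 to 0.15 for Pex5. Among further peroxisomal enzymes 20 of 24 were measured, with a median of -0.016. Cat, the catalase that destroys the hydrogen peroxide made by the oxidases, was 2.86-fold higher (1.52; signals of 13579 and 5764) on its only probe and was the 1 gene of that list past 1.5-fold. Idh1 had the next highest value among genes of that list (0.32), and Abcd4 the lowest (-0.56). The list also holds transporters such as Abcd4, and whether each product lies in peroxisomes was not checked here.

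**Figure D3:**
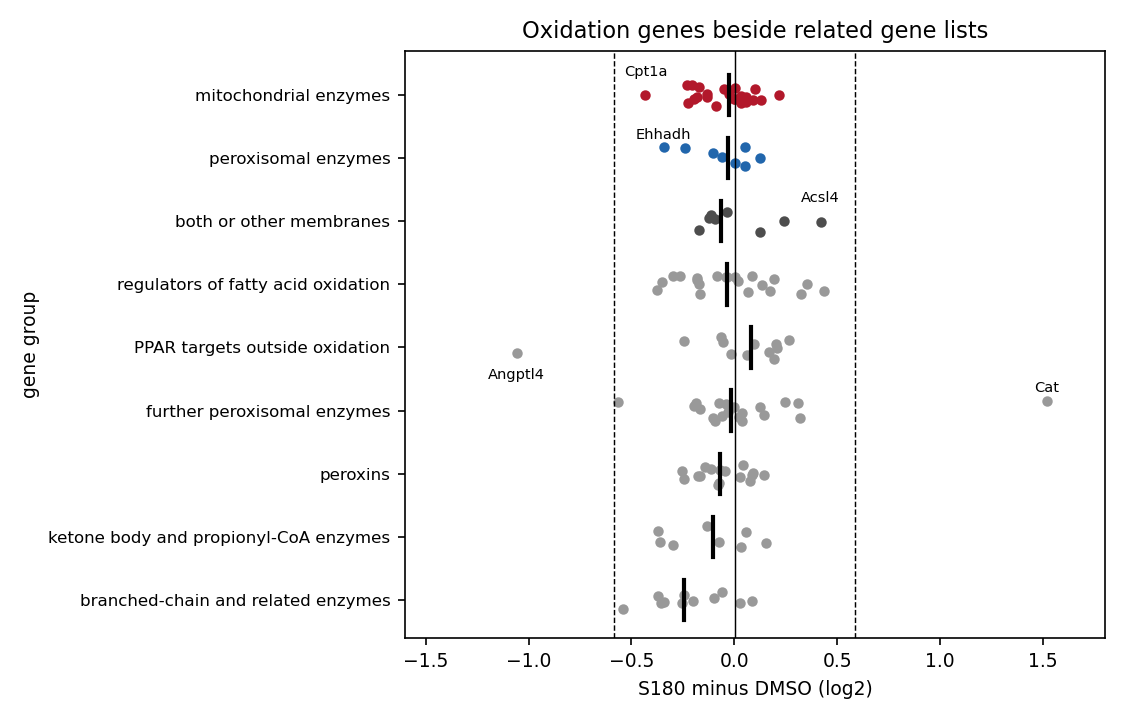
Difference S180 minus DMSO in log2 (x axis) for each measured gene of the 3 classes and of 6 related lists (y axis). Thick bars are list medians, the thin line is the median gene and dashed lines mark 1.5-fold. The oxidation classes stay inside the dashed lines, and Angptl4 (-1.06) and Cat (1.52) lie outside.

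The labels name no cell type, so markers of several were looked up. Of tissues best known for fatty acid oxidation, 0 of 5 hepatocyte, 1 of 5 adipocyte and 2 of 5 striated muscle markers were measured in both samples, where 56.1% of all named targets were. The same held for 6 of 6 melanocyte, 5 of 5 fibroblast, 4 of 5 macrophage, 4 of 5 neuron, 3 of 5 T or B cell, 2 of 5 epithelial and 1 of 4 endothelial markers. Their signals were far from equal. In S180 the melanocyte markers ran from 4651 (Tyr) to 215584 (Mlana), and the fibroblast markers from 22.2 (Lum) to 640 (Col1a2). The measured macrophage markers ran from 16.0 (Lyz2) to 1418 (Ptprc), and the neuron markers from 33.2 (Syt1) to 6929 (Tubb3). The measured fibroblast and epithelial markers all lay below the median gene, with medians of -0.38 and -0.69, and the melanocyte markers had a median of 0.15. The 2 measured epithelial markers were dim, with S180 signals of 13.3 (Epcam) and 27.6 (Cdh1), where the lowest signal well above background was 13.1. Of the fibroblast markers Lum (-1.72) and Dcn (-0.38) were dim, and the other 3 lay in the middle brightness group. Of these Col1a2 differed by -0.83 (signals of 640 and 1378), with -0.33 from its other measured probe. Pdgfrb differed by -0.24 and Col1a1 by -0.017. The spot SD of dim probes was 0.26. The part of other cells in the differences above was not tested. In such bulk RNA, fewer cells of a type and less RNA per cell cannot be told apart.

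Promoters of 34 of the 40 genes (37 start sites) were found in RefSeq sequence of build GRCm38.p6, whereas the probe positions above are in mm9. The 250 bases before each start were searched on both strands for the nuclear receptor core AGGTCA, for its direct repeat spaced by 1 base, AGGTCANAGGTCA, which PPARs bind, and for ACGTG, the core bound by hypoxia-inducible factors. The single core was found in 5 of 37 windows (13.5%) and in 14.0% of all 32851 promoter windows. The direct repeat was found in 0 member windows and in 0.033% of all windows. ACGTG was found in 1 member window, that of Acadvl (2.70%), and in 16.6% of all windows. The windows with the nuclear receptor core were those of Cpt1a, Acadm, Acadvl, Echs1 and Cpt1c, whose differences ran from -0.43 to 0.0013. Those of Cpt1a, the gene with the lowest value, and Acadm, the medium-chain dehydrogenase, are shown on the gene's strand, with the reverse complement of the core in capitals:
Cpt1a, chr19:3323051-3323300: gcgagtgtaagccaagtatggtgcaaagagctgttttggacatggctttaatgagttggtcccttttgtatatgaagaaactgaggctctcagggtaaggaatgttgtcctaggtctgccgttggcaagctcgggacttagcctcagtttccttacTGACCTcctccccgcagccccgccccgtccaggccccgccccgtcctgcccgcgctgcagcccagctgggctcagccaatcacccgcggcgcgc
Acadm, chr3:153944644-153944893: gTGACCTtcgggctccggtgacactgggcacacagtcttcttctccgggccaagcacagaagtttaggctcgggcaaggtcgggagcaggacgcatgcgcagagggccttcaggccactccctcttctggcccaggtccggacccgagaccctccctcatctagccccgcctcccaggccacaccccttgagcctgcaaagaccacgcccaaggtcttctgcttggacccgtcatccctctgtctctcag
Counting back from the start site, the match lies at -94 to -89 in Cpt1a and at -249 to -244 in Acadm. A match describes the letters only. The promoters of Ehhadh and Acsl4 held none of these motifs in the same window.

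Values from different probes and processing bounded how firmly single genes can be read. Of the 18 oxidation genes with 2 or more measured probes, all probes lay on the same side of the median gene in 11 (61.1%), against 57.8% of 7387 such genes over the whole array. The median range between probes of a gene was 0.15 for oxidation genes and 0.19 for all. Relative to the median gene, Cpt1a lay between -0.49 and -0.40 and Acsl4 between 0.37 and 0.49 under the 14 ways of processing. Ehhadh lay between -0.40 and -0.31 under the 13 ways that kept it. These ways are not independent checks, since those that change only a factor per array give the same relative value. Cpt1a and Ehhadh had 1 probe each, so probe choice could shift them only through the median gene. The deposited log2 values nearly equal those of quantile normalization. Acad9 turned from 0.22 to -0.18 when probes with a RefSeq mRNA accession were used, and to below the median gene with the mean of its probes.

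**Figure D4:**
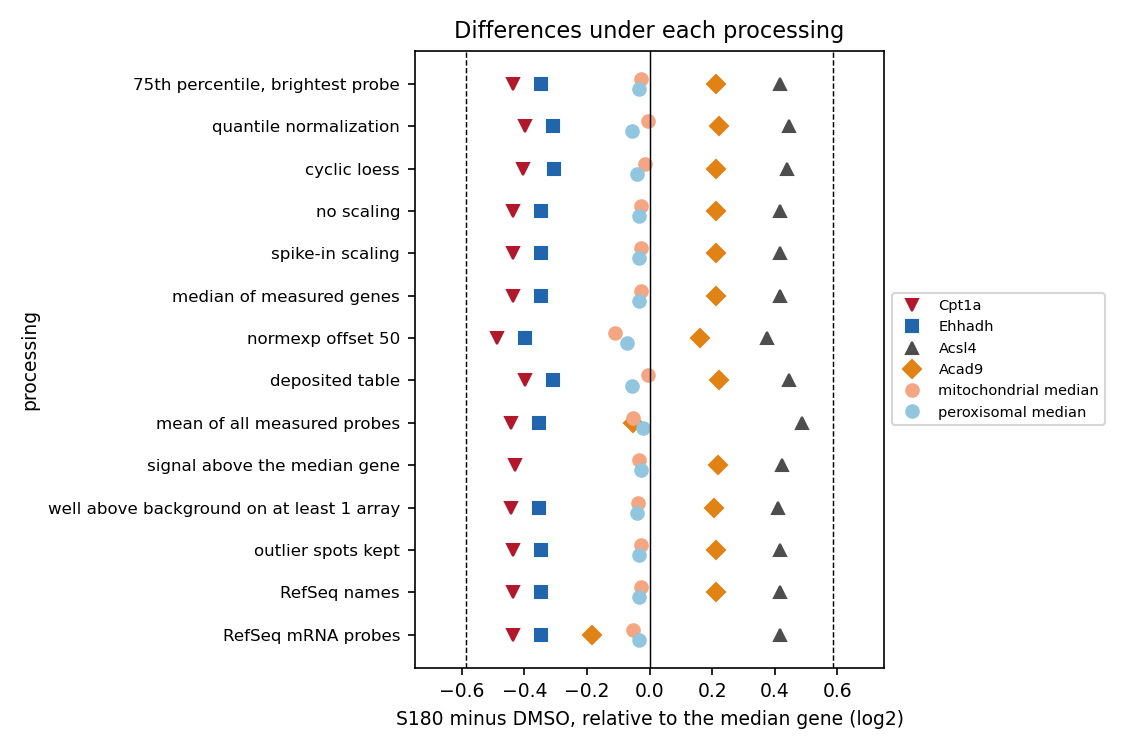
Difference S180 minus DMSO relative to the median gene, in log2 (x axis), under each way of processing (y axis), for 4 genes and the 2 class medians (symbols). Dashed lines mark 1.5-fold. Cpt1a and Ehhadh stay below and Acsl4 above the median gene throughout, Acad9 changes side, and both class medians stay between -0.11 and -0.0056.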

How the data were processed

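Labelled cRNA of 2 samples (1 given S180, 1 given DMSO) was hybridised to 1 array each, on the same slide. The scanner files hold intensity values that the authors deposited from Agilent Feature Extraction 10.7.1.1, with background subtracted and spatial trends removed, per the file headers. A second deposited table gives log2 values, and no label or header says how they were made. In each column 99.99% of them matched quantile normalization of the log2 scanner signals to within 0.1 (median 5.28), which settles their scale, centring and direction, and they served as an alternative.

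Control spots and outlier spots (120 in S180, 195 in DMSO) were left out. Log2 signals were averaged per probe and scaled to the array's 75th percentile over 56602 probes. Genes are named by the gene name in the files. Of 59305 spots, 61.9% (S180) and 60.6% (DMSO) were well above background and 0 were saturated. Precision is limited by having 1 array per group. R 4.3.3 with limma 3.58.1 (quantile, cyclic loess, normexp with offset 50) and Python 3.11.15 were used, and the steps were tested on simulated data. The members, lists and thresholds were chosen with earlier results of these data known. A gene of the related lists is not reported here. Any member could be named, and from a related list genes at least 1.5-fold apart and the 2 largest differences in each direction.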

Additional observations from a re-analysis of the deposited data

How the results depend on the processing

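Over the alternatives to the scaling, background correction, probe choice, filter and naming, 0 genes of fatty acid oxidation were 1.5-fold higher under any. The count of those 1.5-fold lower went from 0 to 2 without scaling and to 4 on the spike-in scale, as all values shift together, and stayed at 0 relative to the median gene. With a 1.2-fold threshold it was 2, with 1 gene higher, and with 2-fold 0 of each. The mitochondrial median relative to the median gene went from -0.028 to -0.11 with normexp, and the cause was not tested; the peroxisomal median and the contrast of the classes moved by less than the spot SD of 0.063. Of the related genes, 1 was 1.5-fold lower and 1 higher. The lower count was 10 of 88 without scaling, where 9.01% of all measured genes were 1.5-fold lower. On the spike-in scale it was 18 of 88, where 14.3% of all measured genes were. The higher count was 2 with the mean of all probes and 3 with genes well above background on at least 1 array. Over all genes, 356 lower and 640 higher became 59 and 259 with normexp, 1873 and 201 without scaling, 31 and 176 among brighter genes and 594 and 1270 with the looser filter. The choice of RefSeq mRNA probes was made after seeing the data. No paired analysis was possible because each group holds 1 sample.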

Other observations

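Branched-chain amino acid breakdown uses acyl-CoA dehydrogenases of the same family as those of fatty acid oxidation. All 11 genes of that list were measured, 9 lay below the median gene, where 50% of genes do by definition, and the median was -0.24. At 1.2-fold 4 were lower and 0 higher, where 11.8% of all measured genes were lower and 15.1% higher. Dbt, a subunit of the branched-chain keto acid dehydrogenase complex, had signals of 166 in S180 and 294 in DMSO and a difference of -0.54. Gcdh, the glutaryl-CoA dehydrogenase of lysine breakdown, had signals of 531 and 834 and a difference of -0.37. Bckdha, the alpha subunit of the same complex as Dbt, had the highest value, 0.085. In the list of ketone body and propionyl-CoA enzymes 8 of 9 genes were measured, with a median of -0.10. Pcca, a subunit of propionyl-CoA carboxylase, differed by -0.37 on its brightest probe and by up to 0.045 on others. Bdh2 differed by -0.36, and Bdh1, a ketone body dehydrogenase, had the highest value (0.15). These differences come from 1 array per group and have no replicate check.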
